A study of Mus musculus with 2 samples.

Results

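Ccl2, Ccl7, Ccl8 and Ccl12 encode CC chemokines, small secreted proteins that attract monocytes and other leukocytes. These 4 of the 31192 genes of the matrix were chosen by name, and all 4 were present. They were measured in leukocytes from pressure-overloaded mouse hearts. The genotype of the mice was Cdh5-CreERT2; REFLEX. The Cdh5 promoter is active in endothelial cells and here drives a Cre recombinase that tamoxifen switches on, and in the REFLEX reporter GFP marks interacting cells. All mice were treated with tamoxifen and operated by transverse aortic constriction (TAC), which narrows the aorta. No unoperated mice were analysed here, so no level can be tied to the operation. GFP-positive and GFP-negative cells, each from the CD45-positive and the CD45-negative fraction, were sorted and pooled into 1 transcriptome library and 1 hashtag library. The number, sex and age of the mice are not given in the sources used here.

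The library had no replicates, so no test between cells or classes was possible, and intervals are exact 95% intervals that cover counting error only. The matrix held 878 cells, of which 857 were kept. Total estimated counts of the kept cells ranged from 28406.6 to 706332, with a median of 77838.8. Clustering without the 4 genes gave 10 clusters. They were 49 macrophage-like cells, 104 and 82 monocyte-like cells in clusters told apart by Ly6c2 and Ace, 30 conventional dendritic-like cells, and 134 and 138 neutrophil-like cells in clusters told apart by Icam1 and Ngp, genes among the 10 leading ones of each cluster. The others were 160 B cell-like, 103 T cell-like, 27 NK cell-like and 30 unnamed cells. No cluster was endothelial-like or fibroblast-like, although CD45-negative cells had been pooled, so levels in such cells were not analysed here. In the macrophage-like cells 10 of 14 macrophage markers passed the naming rule. As a counts-per-million value (CPM), C1qa stood at 2043 in macrophage-like cells and 5.01 in all other cells. Timd4, a marker of long-lived resident macrophages, stood at 0.291 CPM in macrophage-like and 2.17 CPM in all other cells.

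As background, Ccl2, Ccl7 and Ccl12 act on the receptor CCR2, through which classical monocytes leave the bone marrow and enter injured tissue. Ccl7 and Ccl8 can also bind other CC receptors, and mouse Ccl8 is a ligand of CCR8 on T cells. In the heart, macrophages that settled early and macrophages derived from blood monocytes coexist, and CCR2 marks the monocyte-derived kind. The RefSeq annotation places the genes side by side on mouse chromosome 11 in the order Ccl2, Ccl7, Ccl11, Ccl12, Ccl8 and Ccl1. Ccl11 was not analysed here, and Ccl1 is described with the other ligands.

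Promoter sequences were read for the 2 of the 4 genes that matched the RefSeq promoter table, Ccl12 and Ccl8. Ccl2 and Ccl7 did not match that table, so their promoters could not be set beside these. Each is the 250 bases before the annotated start on the plus strand of build GRCm38.p6, at chr11:82101595-82101844 for Ccl12 and chr11:82114935-82115184 for Ccl8. Capitals mark runs of at least 8 bases that both share on the same strand.
Ccl12: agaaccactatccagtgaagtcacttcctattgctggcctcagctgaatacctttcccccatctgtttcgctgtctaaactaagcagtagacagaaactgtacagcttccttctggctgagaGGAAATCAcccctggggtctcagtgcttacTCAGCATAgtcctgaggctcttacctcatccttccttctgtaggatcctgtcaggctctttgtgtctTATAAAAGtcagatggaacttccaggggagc
Ccl8: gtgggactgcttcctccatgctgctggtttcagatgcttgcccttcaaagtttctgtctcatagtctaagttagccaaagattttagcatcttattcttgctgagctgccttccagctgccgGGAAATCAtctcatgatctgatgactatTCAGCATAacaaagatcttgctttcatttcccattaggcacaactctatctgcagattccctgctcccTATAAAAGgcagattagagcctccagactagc
The 3 shared runs stood in the same order and at nearly the same distances from the start. GGAAATCA began at position -128 in both, TCAGCATA at -98 in Ccl12 and -100 in Ccl8, and TATAAAAG at -31 in Ccl12 and -32 in Ccl8, where -1 is the base before the start. On either strand, these runs occur in 0.983%, 0.481% and 1.51% of 32851 mouse promoters of the same length. The TATA-box letters TATAAA, which lie within the last run, occur in 12.4% of them. Searched on both strands, TGANTCA (AP-1 type) and GGGCGG (GC box) were in neither window, and occur in 6.75% and 32.7% of all these promoters. These matches describe letters in the reference and are not binding sites.

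All 4 genes were highest in macrophage-like cells, which made up 5.72% of the kept cells. Those cells held 68.6% of the Ccl2 counts, 92.3% of the Ccl7 counts, 98.9% of the Ccl8 counts and 98.7% of the Ccl12 counts of the kept cells. Levels are the counts of a gene summed over a cluster and scaled to the total of that cluster, in CPM. They are not scaled to gene length, so each gene is compared between clusters and not with the other genes.

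Ccl2 was the most widely spread of the 4 across myeloid clusters. It stood at 2183 CPM in macrophage-like cells (2158 to 2208), and next at 368 (361 to 376) in the Ly6c2 monocyte-like cluster and 205 (195 to 215) in the Icam1 neutrophil-like cluster. Below these came conventional dendritic-like cells at 158 CPM, of which 90.1% was in 1 cell, and 16.6 CPM remained without it. Unnamed cells at 94.5 CPM and the Ace monocyte-like cluster at 93.2 did not differ beyond counting error, and the Ngp neutrophil-like cluster stood at 37.0. In the B, T and NK cell-like clusters Ccl2 lay between 2.55 and 3.07 CPM, with overlapping intervals.

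Ccl7 was at 1492 CPM in macrophage-like cells (1471 to 1512), with all other clusters at or below 54.7 CPM. The second place of conventional dendritic-like cells rested on 1 cell with 97.4% of their Ccl7 counts, and without it 1.497 CPM remained. That cell had 2659 CPM of Ccl2 and 993 CPM of Ccl7, and it also carried 145 CPM of C1qa, C1qb and C1qc together, the complement genes typical of macrophages. Whether it holds RNA of another cell was not tested. The Ly6c2 monocyte-like cluster had 40.8 CPM of Ccl7 (25.2 without its richest cell) and unnamed cells 29.4 (11.6 without theirs). The remaining 6 clusters lay between 1.53 and 5.88 CPM. The 5.88 CPM of the B cell-like cluster came for 55.2% from 1 cell, which had 752 CPM of Ccl7 and 20.3 of Ccl2, with none of Ccl8 and Ccl12.

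Ccl12 and Ccl8 were nearly restricted to macrophage-like cells. Ccl12 stood at 1349 CPM there (1329 to 1368), and at 5.07 in the Ly6c2 monocyte-like cluster, where 1 cell held 71.4% of the counts and 1.46 CPM remained without it. The other 8 clusters lay between 1.02 and 4.72 CPM, each overlapping its neighbour in the order. Ccl8 stood at 85.0 CPM in macrophage-like cells (80.2 to 90.0) and at 0.354 or less elsewhere, with only 13 counts in the 808 other cells. No Ccl8 count was found in the NK cell-like, Ngp neutrophil-like and unnamed clusters, for which the upper bounds were 1.88, 0.365 and 1.94 CPM.

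**Figure D1:**
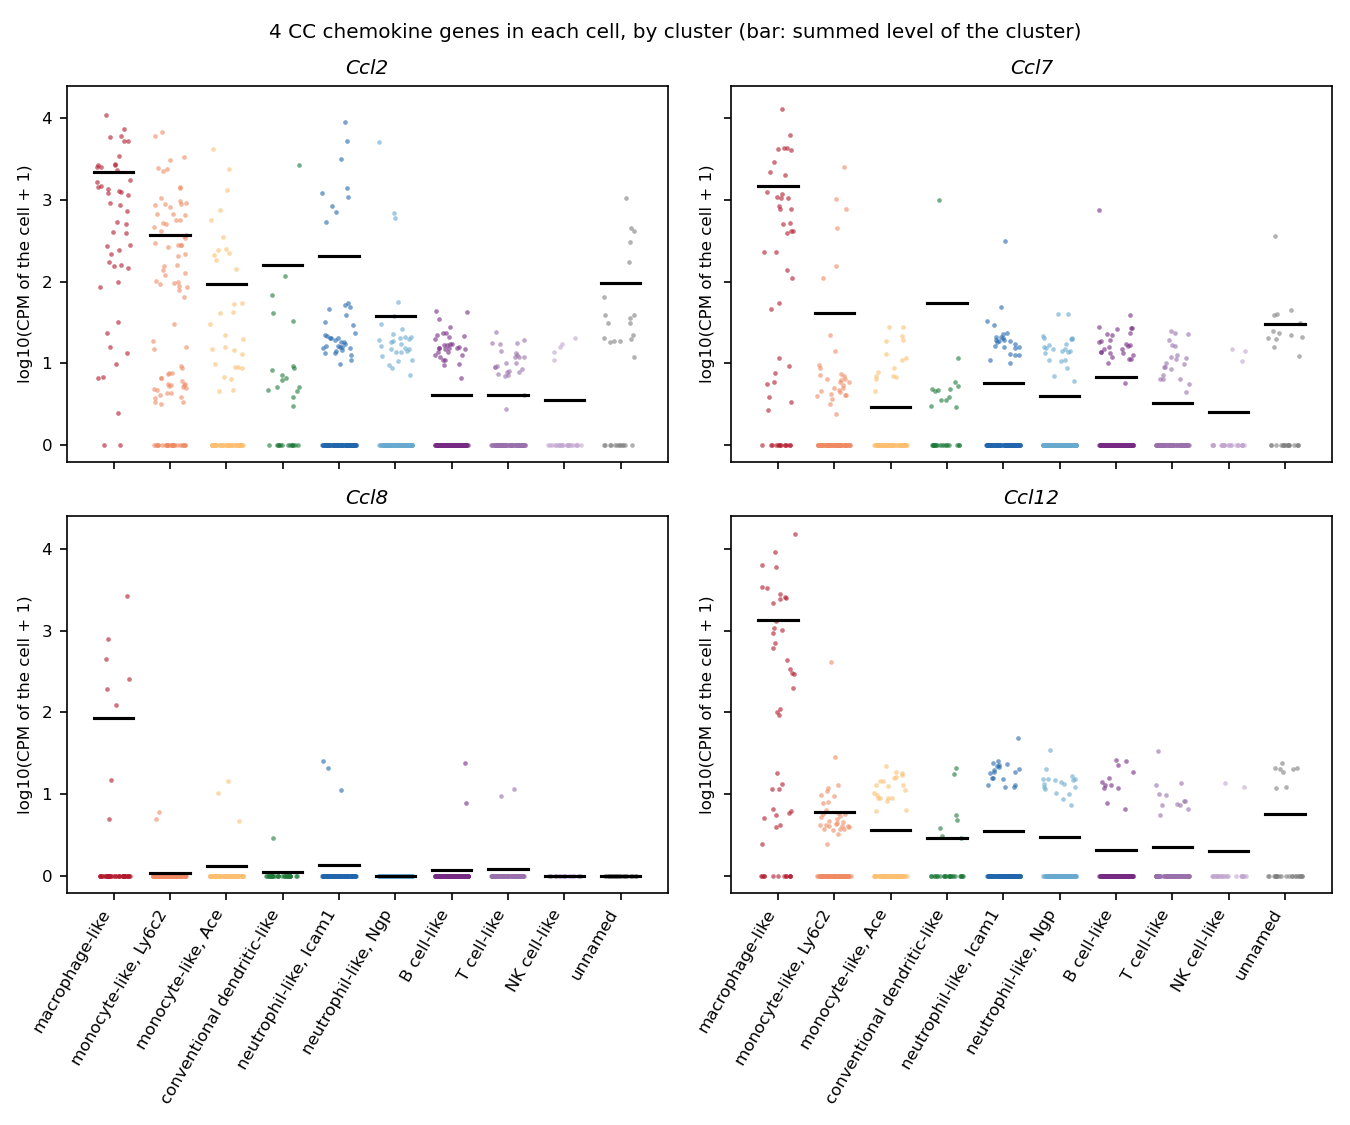
Level of each gene in every kept cell, as log10 of the cell's CPM plus 1 (vertical axis), by cluster (horizontal axis, macrophage-like cells at the left). Points are single cells and black bars the summed level of the cluster. Cells above 1000 CPM occur in several clusters for Ccl2, but for Ccl8 and Ccl12 only among macrophage-like cells.

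Against all other cells together, the 49 macrophage-like cells had 13.8 times the Ccl2 level (13.5 to 14.1), which was 158 CPM in the other cells. Ccl7 was 75.6 times as high (71.9 to 79.4), with 19.7 CPM in the other cells. The ratio of Ccl8 was 568 (331 to 1069), with 0.150 CPM in the other cells. Ccl12 was 482 times as high (425 to 549), with 2.80 CPM in the other cells. Thus 4 of 4 genes were at least 2-fold higher, against 7.44% of the 18243 genes with at least 50 counts, where folds past this limit are counted with 1 CPM added to both sides. On that scale the log2 ratios were 8.47 for Ccl12, 6.22 for Ccl8, 6.17 for Ccl7 and 3.78 for Ccl2, beside a median of -0.20 over all these genes. Ranked by this ratio, Ccl12 was at place 1 of 18243 genes, Ccl8 at 10, Ccl7 at 11 and Ccl2 at 34. The clusters were made from genes that vary with these, so the ranks describe the library and are no test.

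A single cell weighed heavily in these sums. One macrophage-like cell was the richest by counts in Ccl2, Ccl7 and Ccl12, with 6899, 8183 and 5768 counts, and it had 160 counts of Ccl8. It held 30.0% of the counts of the 4 genes in its class and 4.63% of all counts of the class. It was the second deepest of the 49 cells, with 634969 counts and 10411 genes above 0. It passed 50 CPM for 10 of 14 macrophage markers, 5 monocyte markers and 2 neutrophil markers, and for no T, B, NK or conventional dendritic cell marker. It was named A953, and its hashtag counts were 7731 for A953, 492 for A952, 45 for A951 and 11 for A965. The Ccl8 counts were led by another cell, named A952, which held 543 of the 1166 counts.

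Without the richest cell of each gene, the ratio to all other cells was 11.2 for Ccl2 (10.9 to 11.4), 47.6 for Ccl7 (45.2 to 50.1), 308 for Ccl8 (179 to 581) and 348 for Ccl12 (306 to 397). For Ccl7 and Ccl8 these differ by more than 1.5 times from the ratios over all 49 cells. Without the one cell richest in the 4 genes together, Ccl8 remained at 514 times (299 to 968). In that comparison 4 of 4 genes were at least 2-fold higher, against 7.47% of all genes, and their places were 2 for Ccl12, 9 for Ccl8, 12 for Ccl7 and 38 for Ccl2. With 1 CPM added, the log2 ratios were then 8.00, 6.08, 5.50 and 3.47.

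**Figure D2:**
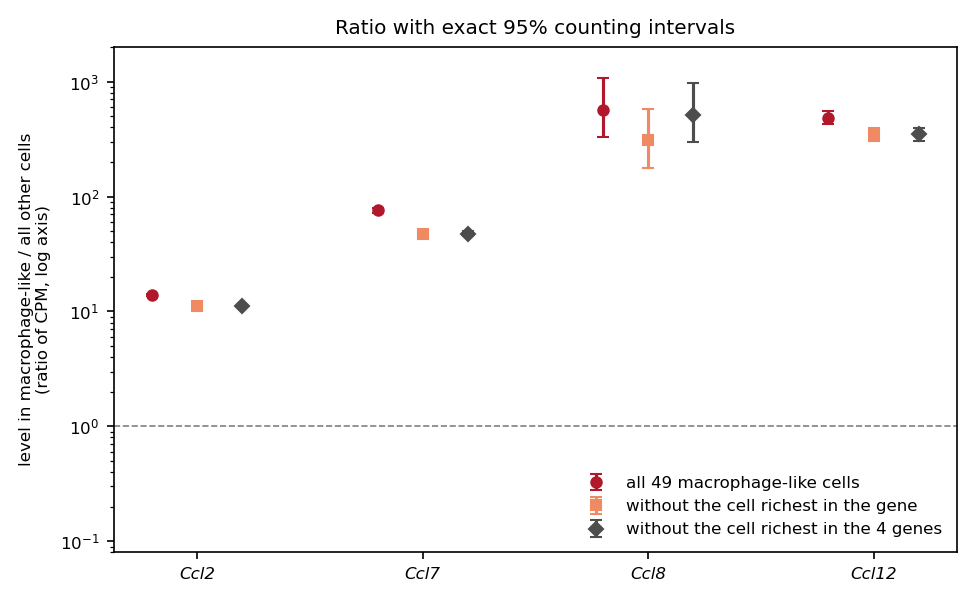
Ratio of the level in macrophage-like cells to that in all other cells for each gene (vertical axis, log scale), over all 49 cells, without the cell richest in the gene and without the cell richest in the 4 genes. Bars are exact 95% counting intervals, and the dashed line marks a ratio of 1. All ratios stay above 11, and that of Ccl2 is the lowest in each set.

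Shares of cells with counts above 0 were read beside the B cell-like cluster as the background. B cells are known as a source of Ccl7 in the infarcted heart, so for Ccl7 the T cell-like cluster is given as well. Ccl2 was above 0 in 95.9% of macrophage-like cells (86.0 to 99.5) and in 19.4% of B cell-like cells, at median totals of 256789 counts per macrophage-like cell and 67466 per B cell-like cell. At an equal depth of 25000 counts, these shares were 83.7% of macrophage-like and 9.38% of B cell-like cells. At this depth Ccl7 was found in 55.1% of macrophage-like, 8.13% of B cell-like and 3.88% of T cell-like cells. Ccl12 was found in 57.1% of macrophage-like and 2.50% of B cell-like cells, and Ccl8 in 12.2% of macrophage-like cells. Before thinning, 2 of the 160 B cell-like cells (1.25%) had a Ccl8 count.

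At that depth the Ly6c2 monocyte-like cluster had Ccl2 in 51.9% of cells (41.9 to 61.8) and the unnamed cluster in 43.3% (25.5 to 62.6). The Ace cluster had it in 26.8% (17.6 to 37.8) and the Icam1 neutrophil-like cluster in 20.1% (13.7 to 27.9). All these values were above the B cell-like share, but the Icam1 interval overlapped the B cell-like interval. The share of the Ngp neutrophil-like cluster, 10.9%, was within the interval of the B cell-like share (5.34% to 14.99%), so this share was not told apart from background. Yet 3 Ngp cells had at least 100 CPM of Ccl2, at 5177, 695 and 603 CPM, and no B cell-like cell did. With the richest cell of each left out, Ccl2 stood at 13.4 CPM in the Ngp and 2.92 CPM in the B cell-like cluster. After thinning, the share of Ccl7 in the Ly6c2 monocyte-like cluster was 7.69% (3.38 to 14.6), an interval that includes the B and T cell-like shares. Its summed Ccl7 level came from few cells, 6 of 104 at 100 CPM or more. In the 30 unnamed cells the thinned Ccl7 share was 26.7% (12.3 to 45.9), above the B and T cell-like shares. That interval overlapped the B cell-like interval for Ccl7 (4.40 to 13.5) but not the T cell-like interval (1.07 to 9.65).

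Levels differed widely among the macrophage-like cells themselves. Per cell, Ccl2 had a lowest value of 0, a median of 735 and a highest of 10865 CPM. Ccl7 had a median of 138 and a highest value of 12887 CPM, and was at 0 in 13 of the 49 cells. Ccl12 had a median of 92.2 and a highest value of 15369 CPM, and was at 0 in 12 cells. That highest value was in a cell named A952 with 103585 counts in total, not in the cell richest by counts. It had 2336 CPM of Ccl2 but 396 of Ccl7 and none of Ccl8.

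Ccl8 was the rarest of the 4 among macrophage-like cells. It was above 0 in 8 of the 49 cells, and 6 of these had at least 50 CPM. Its 3 highest values were 2672, 780 and 452 CPM, and the 5 richest cells held 97.8% of its counts. The 5 richest cells held 58.5% of the counts for Ccl2, 70.1% for Ccl7 and 69.1% for Ccl12. At least 1000 CPM was reached by 22 cells for Ccl2, 14 for Ccl7, 14 for Ccl12 and 1 for Ccl8.

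**Figure D3:**
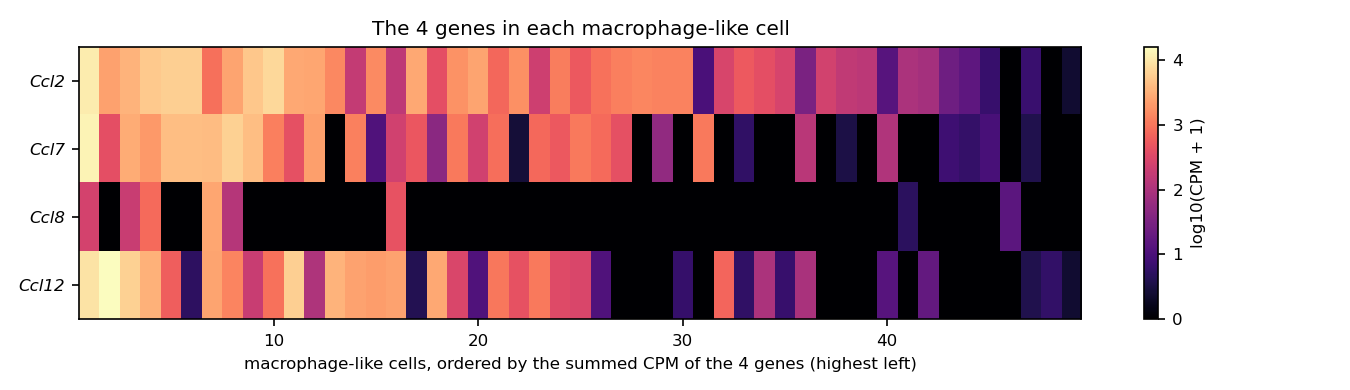
The 49 macrophage-like cells (columns, ordered by their summed CPM of the 4 genes) and the 4 genes (rows), coloured by log10 of CPM plus 1. Ccl2 extends furthest to the right, Ccl7 and Ccl12 are patchy and part from each other in some cells, and Ccl8 appears in 8 cells.

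The genes overlapped without being found together in every cell. With 50 CPM as the limit, 7 macrophage-like cells had none of the 4 genes, 11 had 1, 13 had 2, 12 had 3 and 6 had all 4. The 6 cells with at least 50 CPM of Ccl8 also passed this limit for Ccl2, Ccl7 and Ccl12. Ccl12 came with Ccl2 in 24 of its 25 cells and with Ccl7 in 19 of them. Ccl7 came with Ccl2 in 24 of its 27 cells, and 15 cells had Ccl2 without Ccl7. Ccl7 and Ccl12 parted in 14 cells, 8 with Ccl7 alone of the pair and 6 with Ccl12 alone. One cell named A951, for example, had 5959 CPM of Ccl2 and 4378 of Ccl7 but 4.12 of Ccl12, and no C1qa count.

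Over the 49 cells of the library, the Pearson correlation of log-scaled levels was 0.65 for Ccl2 and Ccl7, and 0.62 without the richest cell. It was 0.48 for Ccl2 and Ccl12 and 0.47 for Ccl7 and Ccl12. For Ccl8 it was 0.47 with Ccl12, 0.44 with Ccl7 and 0.22 with Ccl2. The cells share 1 library, so these values are descriptions. The summed level of the 4 genes had a Spearman correlation of 0.17 with the total counts of the cell and -0.05 with its mitochondrial share.

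By the same measure, the genes most like Ccl2 among 17182 genes were Ccl7, Pf4 (0.61), the platelet factor 4 chemokine gene also made by macrophages, and the cathepsin L gene Ctsl (0.56). The genes closest to Ccl7 were Ccl2, the sorting nexin gene Snx2 (0.58) and Zfp966 (0.53), the last above 0 in 7 of the 49 cells. Those closest to Ccl12 were E130116L18Rik (0.53), Osm (0.53), which encodes the cytokine oncostatin M, and Gm11199 (0.51). The closest to Ccl8 were 4921516A02Rik (0.73), Anp32b-ps1 (0.71) and Gm5430 (0.71), all at or below 3.86 CPM in macrophage-like cells. A likeness that rests on the 8 cells with Ccl8 or on genes at such levels is no finding. Several of these places changed when the richest cell of the member was left out, some by small margins. Gclm (0.5334) then took the place of Ctsl (0.5333) beside Ccl2. Dnai2 (0.55) and Gm9824 (0.54) took those of Snx2 (0.53) and Zfp966 (0.44) beside Ccl7. All 3 genes beside Ccl8 were then others, and the 3 beside Ccl12 were the same. Of the former genes beside Ccl8, 4921516A02Rik was then at 0.37, Anp32b-ps1 at 0.58 and Gm5430 at 0.68.

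Among cells rich in Ccl2, macrophage-like cells carried the other members more often than other cells did. At 100 CPM or more of Ccl2 there were 37 macrophage-like cells, 40 in the Ly6c2 monocyte-like cluster and 71 among all cells that were not macrophage-like. Of the 37 macrophage-like cells, 62.2% also reached 100 CPM of Ccl7, 62.2% of Ccl12 and 16.2% of Ccl8. Of the 71 other cells, 7 (9.86%) reached it for Ccl7 and none for Ccl12 or Ccl8. Whatever their Ccl2, 53.1% of the 49 macrophage-like cells reached 100 CPM of Ccl7, 46.9% of Ccl12 and 12.2% of Ccl8. Among all 808 other cells these shares were 1.24%, 0.124% and 0%. The shares in Ccl2-rich cells thus partly restate the levels of the clusters. The single cell outside the macrophage-like cluster with at least 100 CPM of Ccl12, in the Ly6c2 monocyte-like cluster, had 408 CPM of Ccl12 and 449 of Ccl7 but 4.53 of Ccl2.

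**Figure D4:**
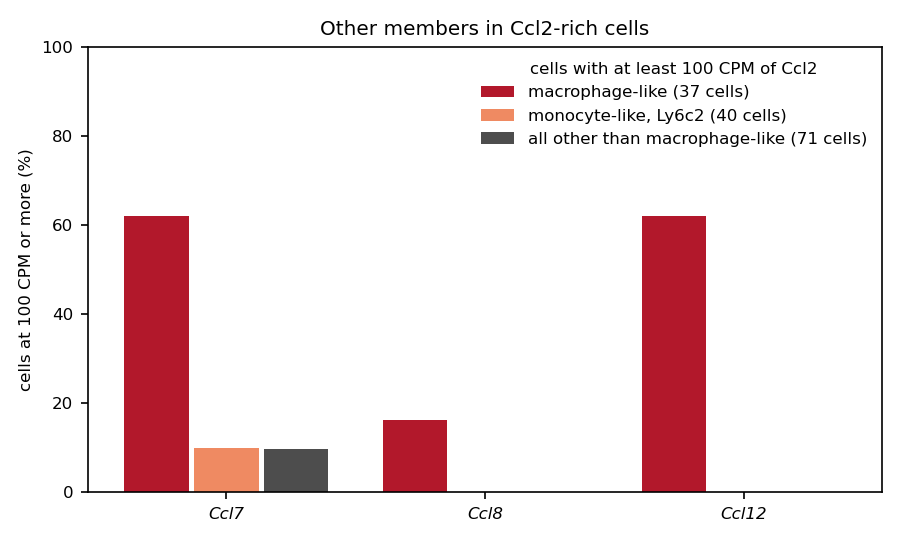
Share of cells with at least 100 CPM of Ccl2 that also had at least 100 CPM of Ccl7, Ccl8 or Ccl12 (vertical axis, percent), for macrophage-like cells, the Ly6c2 monocyte-like cluster and all cells other than macrophage-like (the last includes the Ly6c2 cluster). Bars for Ccl12 and Ccl8 are present for macrophage-like cells alone.

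The proportions of the counts also differed between clusters. For every 100 Ccl2 counts, macrophage-like cells had 68.3 Ccl7 counts (67.1 to 69.6) and 61.8 Ccl12 counts (60.7 to 62.9). The cell richest in the 4 genes raised both proportions, with 6899 Ccl2, 8183 Ccl7 and 5768 Ccl12 counts. Without it 23058 Ccl2, 12287 Ccl7 and 12739 Ccl12 counts remained in the class. The Ly6c2 monocyte-like cluster had 11.1 Ccl7 and 1.38 Ccl12 counts, the Icam1 neutrophil-like cluster 2.30 of Ccl7 and 1.21 of Ccl12, and the Ace monocyte-like cluster 2.09 of Ccl7 and 2.79 of Ccl12. T cell-like cells had 32 Ccl2, 24 Ccl7 and 13 Ccl12 counts in all. Per 100 Ccl2 counts the intervals were 42.3 to 131 for Ccl7 and 19.6 to 79.6 for Ccl12, which include the macrophage-like proportions. B cell-like cells, with 35 Ccl2 counts, had 191 Ccl7 (125 to 297) and 34.3 Ccl12 (16.2 to 67.6) per 100. Of their 67 Ccl7 counts, 37 were in 1 cell. Conventional dendritic-like cells had 34.6 Ccl7 and 1.19 Ccl12 per 100, and unnamed cells 31.1 Ccl7 and 5 Ccl12. The Ccl2 counts of monocyte-like and neutrophil-like cells thus came without Ccl7 and Ccl12 in the macrophage-like proportions.

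Between the monocyte-like clusters, Ccl2 was 3.95 times as high in the Ly6c2 as in the Ace cluster (3.68 to 4.24), at 368 CPM in the Ly6c2 and 93.2 CPM in the Ace cluster. The ratio was 4.54 without the richest cell of each. Ccl7 was 20.9 times as high (13.2 to 35.5), at 40.8 CPM in the Ly6c2 and 1.95 CPM in the Ace cluster, or 13.9 times without these cells. For comparison, 11.7% of all genes tested were at least 2-fold higher in the Ly6c2 cluster. The ratio of Ccl12 was 1.95 (1.25 to 3.16), at 5.07 CPM in the Ly6c2 and 2.598 CPM in the Ace cluster. It turned to 0.597 (0.342 to 1.07) without the richest cell of each cluster. Ccl8 had 2 counts in the Ly6c2 and 3 in the Ace cluster.

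Some of the Ccl2-rich cells of the Ly6c2 monocyte-like cluster also carried macrophage markers. The 14 macrophage markers summed to 21194 CPM in macrophage-like cells, 7399 in the Ly6c2 cluster and 7239 in the Ace cluster. Of the 40 Ly6c2 cluster cells with at least 100 CPM of Ccl2, 18 carried at least 5 macrophage markers at 50 CPM. In the whole cluster 31 of 104 cells did so. Without these 31, Ccl2 stood at 264 CPM, Ccl7 at 34.1 and Ccl12 at 7.25, against 368, 40.8 and 5.07 CPM with them. The highest Ccl2 cell of the cluster, at 6782 CPM, had 6 such markers and 754 CPM of the C1q genes. The next, at 6153 CPM, had 2 markers and no C1q count. The part of these markers in the difference was not tested.

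Between the neutrophil-like clusters, Ccl2 was 5.54 times as high in the Icam1 as in the Ngp cluster (4.95 to 6.21), at 205 CPM in the Icam1 and 37.0 CPM in the Ngp cluster. Without the richest cell of each, the ratio was 9.64 (8.06 to 11.6), at 129 CPM in the Icam1 and 13.4 CPM in the Ngp cluster. Of all genes tested, 16.5% were at least 2-fold higher in the Icam1 cluster. The Ccl7 ratio of 1.59 (0.966 to 2.64) and the Ccl12 ratio of 1.25 (0.646 to 2.44) did not differ from 1 beyond counting error. In the Icam1 cluster 9 of 134 cells reached 100 CPM of Ccl2, and 3 of the 9 were named doublet. These included the highest, at 9042 CPM of Ccl2 with no Ccl7 or Ccl12 count, 1 macrophage marker and 13.9 CPM of the C1q genes. Whether such cells hold RNA of another cell was not tested.

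Transcripts of the receptors lay partly in other clusters than those of the ligands. Ccr2, the receptor of Ccl2, Ccl7 and Ccl12, stood at 730 CPM in macrophage-like cells (715 to 744) and 848 in the Ly6c2 monocyte-like cluster (837 to 860). It was at 257 CPM in unnamed cells, 174 in conventional dendritic-like cells, 72.5 in NK cell-like, 65.1 in T cell-like cells and 63.7 in the Ace cluster, and at most 2.87 in the B cell-like and neutrophil-like clusters. Both Ccr2 and the ligands were thus found in the macrophage-like cluster, where Ccr2 was above 0 in 93.9% of cells. In the 41 macrophage-like cells with at least 50 CPM of Ccr2 the Ccl2 level was 2202 CPM, against 2028 CPM in the 8 cells below this limit. With the richest cell on each side left out it was 1726 CPM in cells with Ccr2, against 915 CPM in cells below the limit. The per-cell medians of Ccl2 were 735 CPM with Ccr2 and 704 CPM below the limit. For Ccl7 the levels were 1499 CPM with Ccr2 and 1436 CPM below the limit, and the medians 53.8 and 267 CPM. At least 50 CPM of Ccl7 was reached by 51.2% of cells with Ccr2 and 75% of cells below the limit. Ccl12 stood at 1261 CPM in cells with Ccr2, against 2049 CPM in cells below the limit, and at 831 against 1083 CPM without the richest cells. Ccl8 stood at 68.8 CPM in cells with Ccr2, against 213 CPM in cells below the limit, and at 24.7 against 21.0 CPM without the richest cells. The median totals of the cells were 271154 with Ccr2 and 153586 below the limit, and the part of depth was not tested.

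Ccr1, a receptor that binds Ccl7 among other ligands, was highest in the neutrophil-like clusters, at 962 CPM in the Icam1 and 710 CPM in the Ngp cluster, with 135 CPM in macrophage-like cells and 215 in the Ly6c2 cluster. Ccr8, the receptor of mouse Ccl8, was almost only seen in T cell-like cells, at 31.5 CPM (28.2 to 35.1) with 56.6% of the counts in 1 cell, against 0.146 CPM in macrophage-like cells. Ccr3 was at most 7.43 CPM and the scavenging receptor gene Ackr2 at most 0.525 CPM in any cluster.

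**Figure D5:**
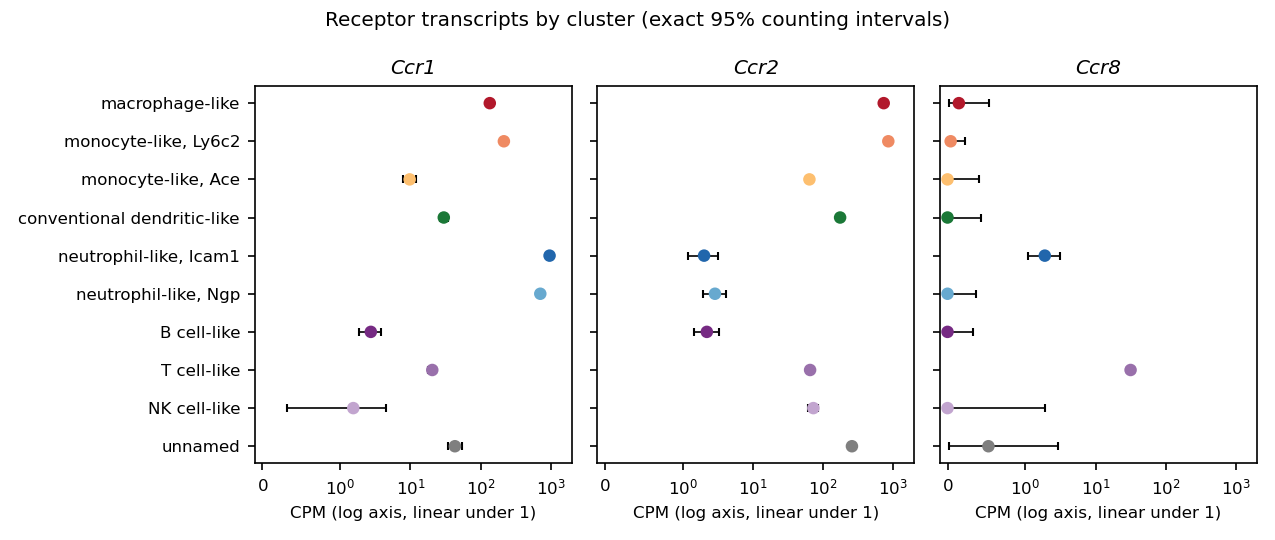
Levels of Ccr1, Ccr2 and Ccr8 (horizontal axes, CPM, log scale that is linear under 1) in each cluster (rows, macrophage-like cells at the top). Bars are exact 95% counting intervals. Ccr2 is highest in the Ly6c2 monocyte-like and macrophage-like clusters, Ccr1 in the neutrophil-like clusters and Ccr8 in T cell-like cells.

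The other CC ligands did not share the pattern as a group. Of 11 tested in macrophage-like against all other cells, 4 were at least 2-fold higher and 4 at least 2-fold lower, with a median log2 ratio of -0.52 beside -0.20 over all genes. Of all genes tested, 7.44% were at least 2-fold higher and 17.1% at least 2-fold lower. Macrophage-like cells had 4111 CPM of Ccl6, 2.09 times the level of all other cells, and 2300 CPM of Ccl9, 3.93 times that level. They had 969 CPM of Ccl4 (3.67 times) and 291 CPM of Ccl3 (0.699 times). Ccl24, an attractant of eosinophils, was 10.1 times as high in macrophage-like cells (9.18 to 11.2), at 77.7 CPM, against 7.67 CPM in all other cells. Ccl1, the chromosomal neighbour of Ccl8, stood at 0.713 CPM in macrophage-like cells, against 4.25 CPM in all other cells, and 1 T cell-like cell held 98.5% of the Ccl1 counts of its cluster.

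Genes of known regulators of inflammatory transcripts were mostly within 2-fold of all other cells, as were most genes tested. Over all these genes, 7.44% were at least 2-fold higher in macrophage-like cells and 17.1% at least 2-fold lower, with a median log2 ratio of -0.20. Of 15 regulators of transcription and RNA decay, 1 was at least 2-fold higher in macrophage-like cells (Fos, 2.15 times) and 1 at least 2-fold lower (Stat3, 0.474 times), with a median log2 ratio of -0.05. Nfkbia, the NF-kappaB inhibitor, stood at 1671 CPM in macrophage-like cells, 0.930 times the level of all other cells. Zfp36, an RNA decay factor, stood at 1534 CPM (1.43 times) and Dusp1, a MAP kinase phosphatase, at 918 CPM (0.945 times) in macrophage-like cells. Of 8 interferon-stimulated genes 1 was at least 2-fold higher (Cxcl10, 2.90 times) and 6 were at least 2-fold lower (median -1.14), among them Isg15 (0.394 times) and Irf7 (0.437 times). The number lower was 5 without the cell richest in the 4 genes and 4 with each cell weighted alike. Of 10 genes sensitive to tissue dissociation 4 were at least 2-fold higher, among them the transcription factor gene Atf3 (2.56 times), and none was at least 2-fold lower (median 0.72).

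Of 10 other inflammatory mediators, 2 were at least 2-fold higher in macrophage-like cells and 1 was at least 2-fold lower, with a median log2 ratio of -0.52. With each cell weighted alike, 4 were at least 2-fold lower. The shares over all genes tested were 7.44% higher and 17.1% lower. Il10, an anti-inflammatory cytokine, was 19.8 times as high (18.0 to 21.8), at 126 CPM in macrophage-like and 6.37 CPM in all other cells, with 46.8% of its macrophage-like counts in 1 cell. Cxcl1, a neutrophil attractant, was 18.7 times as high, at 260 CPM in macrophage-like and 13.9 CPM in all other cells, with 86.2% of its macrophage-like counts in 1 cell. Il1b in macrophage-like cells was at 0.451 times and Cxcl2 at 0.719 times the level of all other cells.

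Of 15 genes of resident macrophages 14 were at least 2-fold higher and 1, Timd4, lower, and 6 of the 15 were also cell type markers. Their median log2 ratio was 3.34. The shares over all genes tested were 7.44% at least 2-fold higher and 17.1% at least 2-fold lower. Pf4 was 235 times as high, at 2726 CPM in macrophage-like and 11.6 CPM in all other cells. Selenop, which encodes a secreted selenoprotein, was 7.98 times as high. F13a1, a coagulation factor gene, was 4.04 times as high. Of 9 genes of recruited or lipid-associated macrophages 4 were at least 2-fold higher and 2 at least 2-fold lower, with a median log2 ratio of 0.94. Spp1, which encodes osteopontin, was 19.7 times as high, at 2720 CPM in macrophage-like and 138 CPM in all other cells, and the lipid receptor gene Trem2 was 10.7 times as high. Lgals3, galectin-3, was 1.86 times as high.

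Within the macrophage-like cells, the 4 genes were not confined to cells with either kind of gene. The 29 cells with at least 50 CPM of Spp1 had 2951 CPM of Ccl2, 2189 of Ccl7, 130 of Ccl8 and 1699 of Ccl12. The 20 cells below this limit had 902 CPM of Ccl2, 329 of Ccl7, 10.5 of Ccl8 and 765 of Ccl12. The medians per cell with Spp1 were 876 CPM of Ccl2, 501 of Ccl7 and 196 of Ccl12, against 397, 2.64 and 7.93 CPM of the same genes in cells without. Leaving out the richest cell of each gene on either side, cells with Spp1 had 2318 CPM of Ccl2, 1334 of Ccl7, 67.9 of Ccl8 and 1108 of Ccl12. Cells without Spp1 then had 767 CPM of Ccl2, 183 of Ccl7, 0.410 of Ccl8 and 459 of Ccl12. The median totals of the cells were 282605 with and 220368 without Spp1, and the part of depth was not tested.

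The 16 cells with at least 50 CPM of Cbr2, a resident macrophage gene, had 3559 CPM of Ccl2, 3223 of Ccl7 and 2121 of Ccl12. The 33 cells below this limit had 1430 CPM of Ccl2, 544 of Ccl7 and 926 of Ccl12. Without the richest cell on each side, the levels of these genes in the same order were 2459, 1768 and 1073 CPM in cells with Cbr2, against 1052, 437 and 681 CPM in cells without. For Folr2, the folate receptor gene, the per-cell medians in the 11 cells with at least 50 CPM were 1263 CPM of Ccl2, 769 of Ccl7 and 1011 of Ccl12. In the 38 cells below it they were 523 CPM of Ccl2, 125 of Ccl7 and 11.5 of Ccl12. The share of cells with at least 50 CPM of Ccl7 was 54.5% with and 55.3% without Folr2. As a sum, Ccl12 stood at 2399 CPM with and 992 CPM without Folr2, or 906 with and 784 without once the richest cell on each side was left out. Ccl8 stood at 52.9 CPM with and 95.8 CPM without Folr2, or 8.44 with and 43.7 without once the richest cells were left out. The median totals of the cells were 302174 with and 234063 without Folr2, and 292390 with and 242809 without Cbr2. The part of depth was not tested. The cell richest in the 4 genes had at least 50 CPM of Spp1, Cbr2 and Folr2. Lyve1, another resident macrophage gene, reached 50 CPM in only 2 cells. Their sums were 1373 CPM of Ccl2, 0 of Ccl7, 0 of Ccl8 and 2073 of Ccl12. The 47 cells below this limit had 2213 CPM of Ccl2, 1548 of Ccl7, 88.2 of Ccl8 and 1321 of Ccl12. Without the richest cell on each side, Ccl12 stood at 5.14 CPM with and 930 without Lyve1. The per-cell median of Ccl2 was 1353 CPM with and 535 without Lyve1.

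By hashtag name, 23 macrophage-like cells were called A952, 16 A951, 7 A965, 2 A953 and 1 doublet. The highest tag count was that of the named tag in 23 of 23 A952 cells and 16 of 16 A951 cells, but in 1 of 7 A965 and 1 of 2 A953 cells. The link between tags and sorted fractions is not given in the labels, so the GFP classes were left uncompared. In cells named A952 the medians were 1443 CPM of Ccl2, 501 of Ccl7 and 340 of Ccl12. In cells named A951 they were 455 CPM of Ccl2, 59.6 of Ccl7 and 7.87 of Ccl12. The ranges overlapped widely, from 1.44 to 7412 CPM of Ccl2 in A952 cells and from 0 to 5959 in A951 cells.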

How the data were processed

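Sorted heart cells were pooled and measured on BD Rhapsody with TAS-Seq as 1 transcriptome and 1 hashtag library. The submitters' processing notes name build GRCm39, STAR, STARsolo 2.7.10b, cutadapt 4.1 and R 4.3.1. The authors deposited estimated counts per gene and cell, not normalized (69.8% of values above 0 are whole), and whole tag counts per barcode. The labels do not say whether reads or molecules were counted, and intervals would be too narrow for reads.

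Cells with at least 500 counts, 200 genes and at most 25% mitochondrial counts were kept, which left out 21 of 878. The 46 kept cells named doublet stayed in, and no doublet caller was run. Counts were scaled to 10000 and log-transformed, 2000 variable genes were taken without the 4 genes and the pathway lists (markers excepted), and 30 principal components, 15 neighbours and Leiden clustering (resolution 1, seed 0) were used, in scanpy 1.11.5. A cluster was named after a type when at least 3 of its markers reached 50 CPM and 2 times the level of other cells.

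Levels are summed counts in CPM with exact Poisson intervals, ratios and shares carry exact Clopper-Pearson intervals (scipy 1.17.1), and the interval calculation was tested on simulated data. Shares were also taken after thinning to 25000 counts per cell. Up to 4 genes per list with at least 50 CPM in macrophage-like cells were named by level, and further genes named were chosen after their values were seen. Some genes that this rule selects are not reported here. The members, lists and tests were chosen with earlier results of these data known. Alternatives were other filters, clusterings and weightings, and leaving out the richest cell.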

Additional observations from a re-analysis of the deposited data

How the results depend on the processing

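No paired analysis was possible because the series is 1 pooled library without replicates. All ratios of macrophage-like to other cells stayed above 11 under each alternative run. Without the richest cell they were 11.2 for Ccl2, 47.6 for Ccl7, 308 for Ccl8 and 348 for Ccl12, and without the richest cell on each side 12.5 for Ccl2, 64.2 for Ccl7 and 551 for Ccl12. At most 10% mitochondrial counts gave 13.5 for Ccl2 and 68.9 for Ccl7, and no filter on cells 13.2 for Ccl2 and 86.0 for Ccl7. Without cells named doublet Ccl2 was at 15.02. For Ccl2 and Ccl7 in this order, Leiden resolution 0.5 gave 12.2 and 67.8, resolution 1.5 gave 12.9 and 66.0, seed 1 gave 12.9 and 68.6, and thinning gave 14.4 and 96.3. For Ccl7, equal weight per cell gave 92.4 and all genes in the clustering 96.3. Thinned shares of macrophage-like cells were 83.7% for Ccl2, 55.1% for Ccl7 and 57.1% for Ccl12. The ratio of Ccl12 between the Ly6c2 and Ace monocyte-like clusters turned to 0.597 without the richest cell of each, an alternative chosen after seeing the data, as was leaving out the richest cell on each side. The cause of these shifts was not tested. Shares above 0 depend on depth, and intervals cover counting error only.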
